A study of Mus musculus with 15 samples.

Results

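The completeness of rescue was examined in 3T3-L1 cells, a mouse preadipocyte line, on day 2 of adipocyte differentiation. The 3 libraries of JMJD1A-knockdown (sh-Jmjd1a) cells that re-expressed wild-type JMJD1A were set against the 3 libraries of control (sh-Empty) cells. These 6 libraries were taken by their sample titles from the 15 libraries of the series. The question was which genes were back at the control level once JMJD1A was restored and which were still apart.

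Every group received the same adipogenic mixture of insulin, dexamethasone and IBMX, and every line was a stable line made with pMXs-based retroviral vectors and antibiotic selection. The sh-Empty cells carried a vector without a hairpin against Jmjd1a. The sh-Jmjd1a cells carried the hairpin. The JMJD1A(WT) cells carried the same hairpin and, from a second infection, an shRNA-resistant JMJD1A, and the LacZ cells carried the hairpin and a lacZ reporter as the control for that second infection. The last group, JMJD1A(H1122A), carried the hairpin and the H1122A mutant of JMJD1A, and served here mainly for the common estimate of the spread. JMJD1A(WT) and sh-Empty therefore came from separate sets of cell lines, the rescue set and the knockdown set. A gene that was not restored and a gene that differs between the sets of lines cannot be told apart by the direct comparison. No source used here says that the 3 libraries of a group came from separate infections or cultures, so p-values measure only the spread between these libraries, which may be technical.

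JMJD1A, the product of Kdm3a, removes methyl groups from lysine 9 of histone H3, a modification found at repressed genes, and needs iron for this reaction. Preadipocytes that receive the hormone mixture divide again for a short time, raise the transcription factors PPARγ and C/EBPα, and then fill with triglyceride and secrete adipokines. The genes below are therefore ordered from the transcription factors to the secreted and lipid-handling proteins, and then to the matrix, cell cycle and interferon genes.

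Total counts ranged from 11437058 to 15561207 in the sh-Empty libraries and from 12673417 to 25523148 in the JMJD1A(WT) libraries. In a principal component analysis of the 15 libraries, the first component held 43.7% of the variance. On it the sh-Empty libraries lay between -39.1 and -38.0, and the JMJD1A(WT) libraries reached 4.39 at most and lay nearer to the sh-Jmjd1a and LacZ libraries than to the control. The preadipocyte and fibroblast markers were strongly present, with a summed level of 4838 to 4948 CPM, the count of a gene scaled to the size of its library, in sh-Empty and 5189 to 5252 CPM in JMJD1A(WT) libraries. All 9 macrophage markers together came to 6.38 CPM at most in these 2 groups, with Tyrobp and Ptprc at 0 counts in both. The 7 endothelial markers came to 1.57 CPM at most with Cldn5 and Kdr at 0, and the 6 epithelial markers to 0.813 CPM at most with Krt5 at 0.

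**Figure D1:**
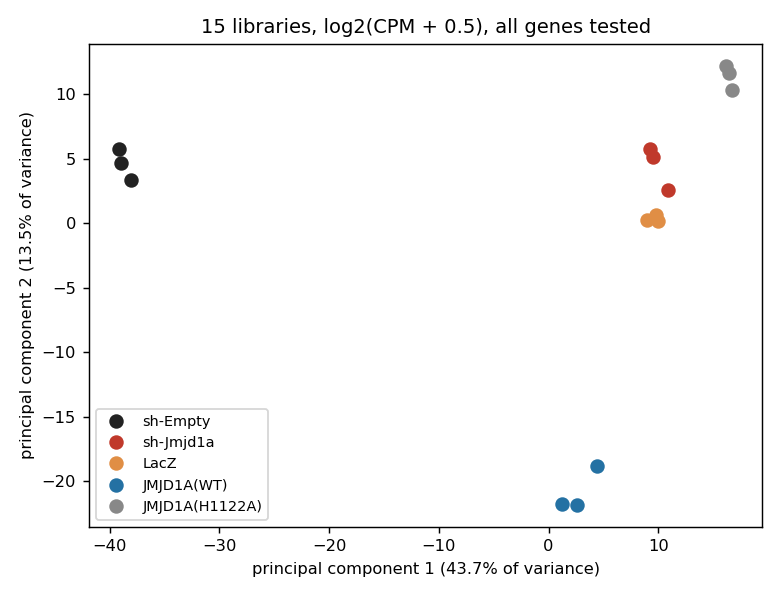
Principal components of the 15 libraries, from log2(CPM + 0.5) of all genes tested. Each point is 1 library, the x axis is component 1 (43.7% of the variance) and the y axis component 2 (13.5%). The 3 JMJD1A(WT) libraries sit near the other hairpin lines on component 1 and below all others, at -21.8 to -18.8, on component 2.

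Kdm3a itself (gene number 104263, chr6:71538968-71582899 in mm9) was first examined in every library. Its level was 169, 171 and 183 CPM in sh-Empty, 128, 127 and 138 CPM in sh-Jmjd1a, 122, 117 and 119 CPM in LacZ and 1777, 1649.9 and 1666 CPM in JMJD1A(WT) cells. The hairpin lines were thus below the control without overlap, and the re-expressing line was above it without overlap. On the log2 scale the knockdown change was -0.41 ± 0.045 (SE, edgeR adjusted p = 9.31e-11), and JMJD1A(WT) stood 3.28 ± 0.04 above sh-Empty (edgeR adjusted p = 1.35e-46). These counts do not separate the cell's own transcript from that of the construct.

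Across all genes, the rescued cells stayed far from the control. Of 12758 genes tested, 5820 differed between JMJD1A(WT) and sh-Empty at an edgeR adjusted p under 0.05, which is 45.6%, with 2915 higher and 2905 lower. A difference of at least 2-fold was seen for 621 genes (4.87%), of which 436 were higher (3.42%) and 185 lower (1.45%), and 610 genes (4.78%) passed a test against a 1.5-fold change. The libraries of the 2 groups did not overlap for 52.9% of all genes. For comparison, sh-Jmjd1a cells differed from sh-Empty cells in 5713 genes (44.8%), and LacZ cells differed from sh-Empty cells in 5913 genes (46.3%). The median absolute log2 difference from sh-Empty was 0.219 in JMJD1A(WT), 0.227 in sh-Jmjd1a and 0.227 in LacZ cells. These 3 comparisons share the sh-Empty libraries. JMJD1A(WT) against LacZ, both in the rescue set, gave 1196 genes (9.37%), with 645 higher (5.06%) and 551 lower (4.32%). LacZ against sh-Jmjd1a, neither of which carried a JMJD1A construct, gave 462 higher (3.62%) and 429 lower (3.36%).

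A p-value that misses the threshold does not show that a gene is back. The 95% interval of each log2 difference between JMJD1A(WT) and sh-Empty was therefore set against a bound of 1.5-fold. A gene that was not called and whose interval lay inside the bound was termed at the control level, and there were 4927 such genes (38.6%). Another 3336 genes (26.1%) were called but lay inside the bound, 2484 (19.5%) were called with an interval reaching past it and were termed apart, and 2011 (15.8%) were undecided. Gusb, a housekeeping gene used as a reference, was at the control level, with 73.3, 68.9 and 71 CPM in sh-Empty and 75.4, 77.5 and 74.8 CPM in JMJD1A(WT) cells and an interval of -0.02 to 0.20 on the log2 scale. Bbs2, a ciliary protein, and Clip3, a microtubule-binding protein, were also at the control level, at log2 differences of 0.18 and 0.05.

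Genes that differed at least 2-fold between sh-Jmjd1a and sh-Empty cells were then followed. Of them 283 were lower on knockdown (2.22% of all genes tested) and 434 were higher (3.40%). Their outcomes against sh-Empty are given as a description with no test, since the sh-Empty libraries also enter the knockdown change that chose them. Of the 283 genes lower on knockdown, 15 were at the control level, 13 lay inside the bound though called, 201 were apart and 54 were undecided. In the comparison with LacZ, which shares no library with the knockdown comparison, 138 of these 283 were higher in JMJD1A(WT) and 3 were lower, against 5.06% and 4.32% of all genes. In LacZ against sh-Jmjd1a cells 44 of the 283 were higher and 10 lower, against 3.62% and 3.36% of all genes. That comparison shares the sh-Jmjd1a libraries with the knockdown change. Their median log2 change was -1.37 on knockdown, -1.36 in LacZ cells against sh-Empty and -0.81 in JMJD1A(WT) cells against sh-Empty.

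The share regained was taken as the rise from LacZ to JMJD1A(WT) over the fall from sh-Empty to sh-Jmjd1a, both on the log2 scale. For the genes lower on knockdown its median was 33.6%, with quartiles of 13.3% and 58.8%. Computed with each JMJD1A(WT) library in turn, the median was 33.2%, 37.8% and 28.2%. At least 50% was regained by 88 genes and at least 100% by 22 genes. For 41 genes the share was 0 or below, which takes in genes that were lower in JMJD1A(WT) than in LacZ. Without JMJD1A(WT) replicate 3 the count of genes at the control level was 8 in place of 15.

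The 434 genes higher on knockdown hardly moved back. Only 2 were at the control level, 2 were called inside the bound, 374 were apart and 56 were undecided. Against LacZ, 44 of them were lower in JMJD1A(WT) and 47 were higher, where 4.32% and 5.06% of all genes were. In LacZ against sh-Jmjd1a cells 48 were lower and 20 higher, where 3.36% and 3.62% of all genes were. The median log2 change was 1.41 on knockdown, 1.24 in LacZ and 1.26 in JMJD1A(WT) cells against sh-Empty, and the median share regained was -0.85%. At least 50% was regained by 11 genes. The count of 2 at the control level ranged from 1 to 5 as single libraries were left out. It was 1 without sh-Empty replicate 3, sh-Jmjd1a replicate 1 or JMJD1A(WT) replicate 1, and 5 without JMJD1A(WT) replicate 3.

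**Figure D2:**
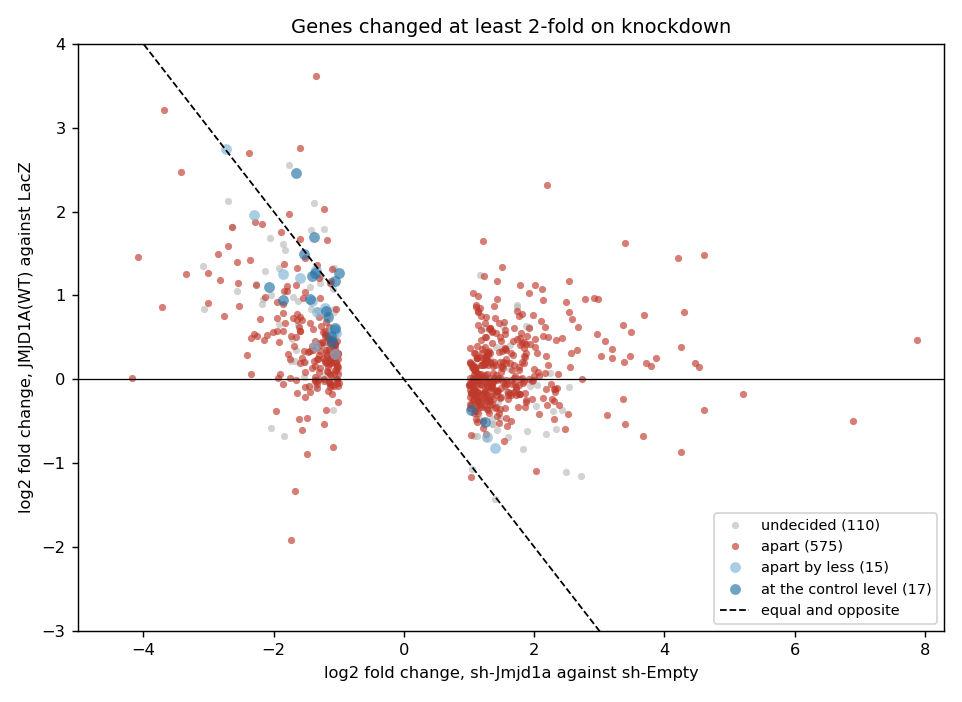
Each point is 1 of the 717 genes changed at least 2-fold on knockdown. The x axis is the log2 change of sh-Jmjd1a against sh-Empty and the y axis that of JMJD1A(WT) against LacZ, which shares no library with it. Colours give the outcome against sh-Empty, the dashed line marks an equal and opposite change, and the numbers in the key count genes. Points on the left, the genes lower on knockdown, mostly lie above 0 but below the dashed line, and points on the right, the genes higher on knockdown, spread around 0.

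Among the adipogenic transcription factors, Cebpa came near the control and Pparg part of the way. Cebpa (gene number 12606), at chr7:35904312-35906945 in mm9, encodes C/EBPα, a factor needed for terminal adipocyte differentiation. It was at 192, 182 and 196 CPM in sh-Empty, 81.6, 78.2 and 66.5 CPM in sh-Jmjd1a, 102, 93.1 and 97.7 CPM in LacZ and 175, 172 and 166 CPM in JMJD1A(WT) cells. All rescued libraries were far above the LacZ libraries and just below the control libraries. The remaining log2 difference from the control was -0.15 ± 0.052 (edgeR adjusted p = 0.0132), and it lost its call without sh-Empty replicate 3 (-0.13, edgeR adjusted p = 0.0824) or JMJD1A(WT) replicate 3 (-0.13, edgeR adjusted p = 0.0787).

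Pparg, the nuclear receptor that drives the adipocyte program, at chr6:115311239-115440419, was at 119.9, 122 and 126 CPM in sh-Empty and 68.2, 63.5 and 68.7 CPM in sh-Jmjd1a cells. It was at 76.1, 70.1 and 72.2 CPM in LacZ and 95.3, 97.9 and 88.1 CPM in JMJD1A(WT) cells, between the LacZ and the control libraries with no overlap with either. The remaining difference was -0.40 ± 0.052 (edgeR adjusted p = 1.35e-08). Srebf1, which switches on lipid synthesis genes, stayed at -0.37 ± 0.044 (edgeR adjusted p = 1e-09) and had regained 33.2% of its loss. Lpin1, a phosphatidate phosphatase of triglyceride synthesis, stood at -0.20 ± 0.057 (edgeR adjusted p = 0.00357), with 113, 108 and 103 CPM in sh-Empty and 100, 98.8 and 85.7 CPM in JMJD1A(WT) cells, and was not called without JMJD1A(WT) replicate 3 (-0.12, edgeR adjusted p = 0.118). The study had picked Cebpa, Pparg, Srebf1, Lpin1, Retn and Tmem120a on these libraries, as it had Bbs2, Clip3, Nr4a1 and Zfpm2, so their direction is not independent evidence. The same holds for other genes on its list of putative JMJD1A targets, which was also chosen in part on these libraries. Among those named below are Nr1h3, C3, Rarres2, Fabp4, Dgat2, Gpd1, Cidec, Mylk, Trf, Ltc4s, A530016L24Rik, Ptpn6, AU015836, Krt13 and Ren1.

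Of the list of 23 tested adipogenic transcription factors and coactivators, 4 were higher and 10 lower in JMJD1A(WT) than in sh-Empty, with a median log2 difference of -0.13 against 0.0041 for all genes, and 6 were at the control level. Of all genes 22.8% were higher, 22.8% lower and 38.6% at the control level, so the share of higher factors was near that of all genes. Nr1h3, the oxysterol receptor LXRα, and Ppargc1b, a coactivator of oxidative genes, were still lower, at -0.60 and -0.70 on the log2 scale. Zfp423, a zinc finger factor of preadipocyte commitment, was higher. Its level was 10.1, 9.19 and 8.77 CPM in sh-Empty, 13.8 CPM on average in sh-Jmjd1a, 14.5 CPM in LacZ and 27.5, 24.6 and 25.8 CPM in JMJD1A(WT) cells, a log2 difference of 1.48 ± 0.12 from the control (edgeR adjusted p = 1.98e-15). It had risen on knockdown and rose again on re-expression.

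Secreted adipocyte proteins regained their level to very different extents, and some ended above the control. Retn, which encodes resistin, at chr8:3655770-3660110, was at 25.7, 24.6 and 24.4 CPM in sh-Empty, 3.12, 1.93 and 1.93 CPM in sh-Jmjd1a, 2.95, 3.13 and 2.99 CPM in LacZ and 17.5, 18.6 and 15.4 CPM in JMJD1A(WT) cells. It had regained 72.2% on the log2 scale and was still -0.57 ± 0.10 from the control (edgeR adjusted p = 4.06e-06). Adipoq, which encodes adiponectin, at chr16:23146609-23158101, was at 47, 55.8 and 54.3 CPM in sh-Empty but only 22.6, 22.3 and 18.9 CPM in JMJD1A(WT) cells, against 9.84, 9.74 and 6.47 CPM in LacZ cells. Its remaining difference was -1.33 ± 0.089 (edgeR adjusted p = 1.35e-17).

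Cfd, the complement protease adipsin, at chr10:79353598-79355401, was the adipokine that stayed lowest against the control. It was at 24.2, 23.5 and 24.2 CPM in sh-Empty, 1.47, 1.93 and 2.01 CPM in sh-Jmjd1a, 3.95, 1.92 and 1.85 CPM in LacZ and 5.76, 5.74 and 3.66 CPM in JMJD1A(WT) cells, and the remaining log2 difference was -2.34 ± 0.16 (edgeR adjusted p = 6.64e-19). The rescued libraries were far nearer to the LacZ than to the control libraries, and 1 LacZ library at 3.95 CPM lay above the lowest rescued library at 3.66 CPM. Agt, which encodes angiotensinogen, fell from 863, 793 and 879 CPM in sh-Empty to 122, 122 and 113 CPM in sh-Jmjd1a cells and stood at 265, 266 and 227 CPM after re-expression, a difference of -1.75 ± 0.048 from the control (edgeR adjusted p = 7.72e-26). C3, the central complement component, was also still lower, at -0.87. In all, 10 of the 13 tested adipokines were higher in JMJD1A(WT) than in LacZ and none lower, where 5.06% of all genes were higher and 4.32% lower. Against sh-Empty 7 were still below and 4 above, where 22.8% of all genes differed each way. Rarres2, among those above, had a knockdown change of -1.13, regained 104% and stood 0.97 above the control (edgeR adjusted p = 0.0009).

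**Figure D3:**
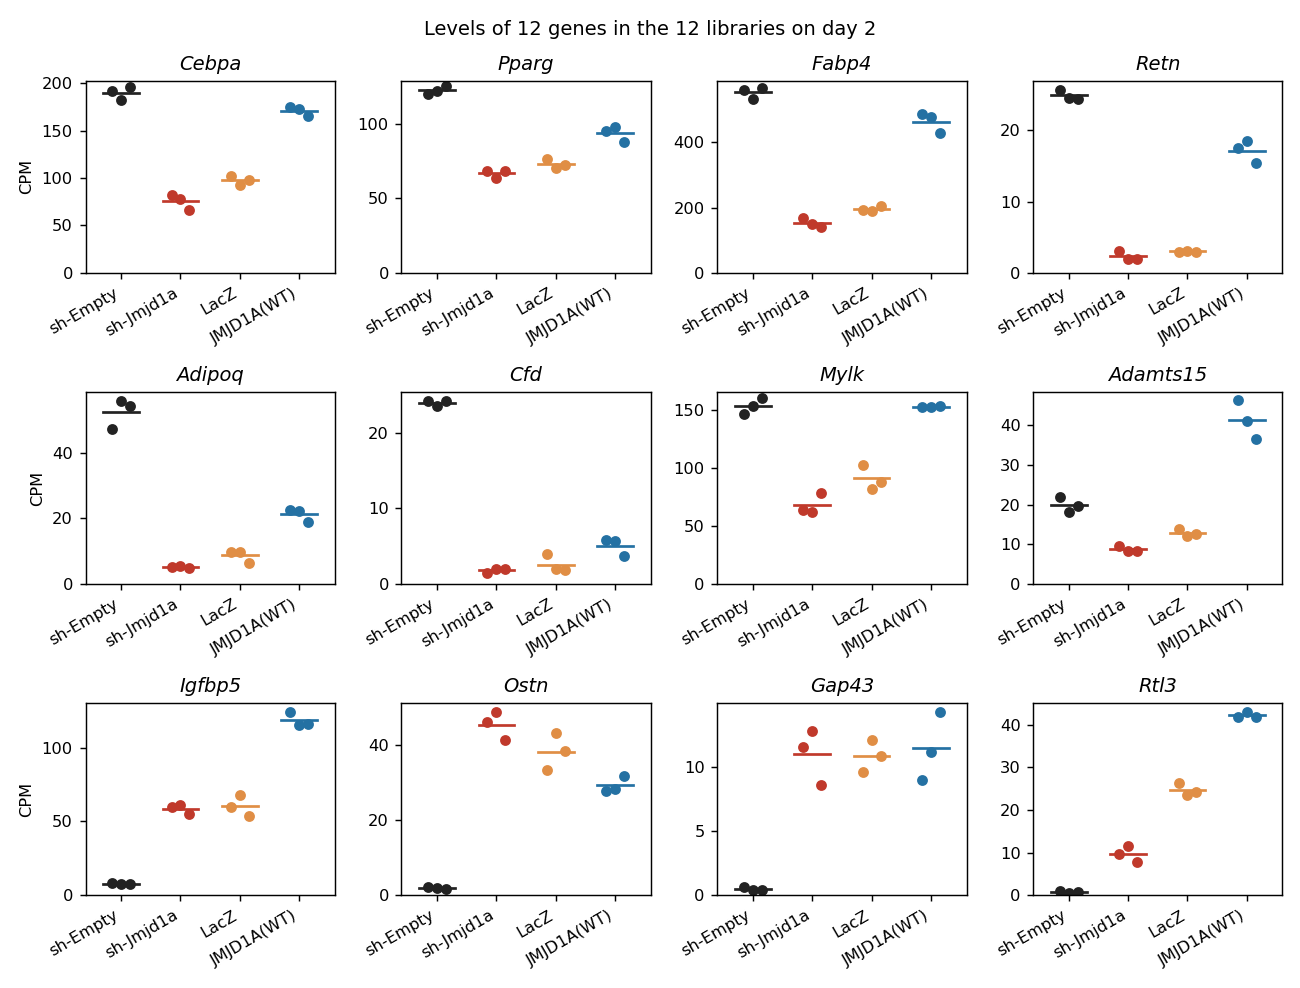
CPM of 12 genes in the 12 libraries of sh-Empty, sh-Jmjd1a, LacZ and JMJD1A(WT) cells. Points are libraries, bars are group means, and each y axis is linear and starts at 0. JMJD1A(WT) points lie beside the control for Mylk, near but below it for Cebpa and Fabp4, and part of the way for Pparg, Retn and Adipoq. They lie near the knockdown for Cfd, above the control for Adamts15, and far above it for Igfbp5, Ostn, Gap43 and Rtl3.

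The RefSeq promoters of 4 genes with different outcomes are shown, since restored and unrestored genes can be compared there. Each is the 250 bases before the annotated start on GRCm38.p6, the build of the promoter table and not that of the count files, written 5′ to 3′ along the gene. Capitals mark TATAAA, and neither CCAAT nor TGANTCA was found on that strand. Cebpa (chr7:35119043-35119292, plus strand) came near the control, Agt (chr8:124569707-124569956, minus strand) and Retn (chr8:3655520-3655769, plus strand) were restored in part, and Rtl3 (chrX:106840540-106840789, minus strand) stayed far above the control.
Cebpa: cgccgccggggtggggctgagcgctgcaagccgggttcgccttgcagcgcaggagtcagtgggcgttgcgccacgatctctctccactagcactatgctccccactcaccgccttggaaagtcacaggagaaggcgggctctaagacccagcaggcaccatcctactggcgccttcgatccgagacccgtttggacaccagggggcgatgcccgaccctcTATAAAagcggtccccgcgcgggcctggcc
Agt: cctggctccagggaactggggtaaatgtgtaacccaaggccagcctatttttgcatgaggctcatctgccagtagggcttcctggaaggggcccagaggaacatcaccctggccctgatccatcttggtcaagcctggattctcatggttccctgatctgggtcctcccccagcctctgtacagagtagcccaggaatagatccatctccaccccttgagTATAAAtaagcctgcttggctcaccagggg
Retn: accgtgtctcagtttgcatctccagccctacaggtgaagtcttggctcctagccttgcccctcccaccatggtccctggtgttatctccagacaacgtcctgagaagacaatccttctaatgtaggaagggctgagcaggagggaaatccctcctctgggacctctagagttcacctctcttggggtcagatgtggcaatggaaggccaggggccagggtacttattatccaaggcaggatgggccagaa
Rtl3: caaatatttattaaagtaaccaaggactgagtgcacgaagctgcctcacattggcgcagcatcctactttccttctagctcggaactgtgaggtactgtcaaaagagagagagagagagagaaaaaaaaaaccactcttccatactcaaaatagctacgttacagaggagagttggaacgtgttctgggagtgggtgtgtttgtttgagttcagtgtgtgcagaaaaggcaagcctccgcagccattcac
The Cebpa and Agt sequences both hold TATAAA from position -30 relative to the start, yet Cebpa has 22 CpG pairs in this window and Agt has 0. Retn has 2 and Rtl3 has 6. TATAAA on either strand was found in the whole promoter windows of the table, which run on a little past the start, of 8.72% of 9759 tested genes, in 13.3% of the 196 genes with a promoter that were lower on knockdown, and in 19.0% of the 306 that were higher. Of the 28 genes lower on knockdown that were back inside the bound, 17 had a promoter in the table and 5 of these held it (29.4%). It was held by 16 of 147 genes lower on knockdown that were apart (10.9%), and by 20.2% of the genes higher on knockdown that were apart. TGANTCA, which some AP-1 sites match, was present in 6.15%, 9.18% and 17.6% of the same 3 sets. The median ratio of observed to expected CpG was 0.76 over all genes, 0.53 for genes lower on knockdown and 0.44 for genes higher on knockdown. These matches are descriptions of letters, not of binding.

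Lipid-handling genes followed the adipokines. Fabp4, the fatty acid-binding protein of adipocytes, was at 560.2, 533 and 566 CPM in sh-Empty, 167, 150.1 and 139.6 CPM in sh-Jmjd1a, 192, 188 and 203 CPM in LacZ and 486, 476 and 428 CPM in JMJD1A(WT) cells. It had regained 67.2% and lay -0.26 ± 0.053 from the control (edgeR adjusted p = 0.000238). Dgat1 and Dgat2, which make triglyceride from diacylglycerol, had fallen by 1.21 and 1.59 on the log2 scale upon knockdown and stood at -0.37 and -0.25 from the control after re-expression. Cd36, a fatty acid transporter, went past it and was already above it in LacZ cells, at 50.6, 53.2 and 53.2 CPM in sh-Empty, 34.5 CPM on average in sh-Jmjd1a, 66.8 CPM in LacZ and 90.3, 103 and 87.8 CPM in JMJD1A(WT) cells.

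Other lipid genes stayed low. Plin1, the lipid droplet coat protein perilipin 1, was at 178, 175 and 180.4 CPM in sh-Empty, 49.9, 46.5 and 49 CPM in LacZ and 73.1, 67.8 and 65.6 CPM in JMJD1A(WT) cells. Its remaining difference was -1.37 ± 0.053 (edgeR adjusted p = 2.02e-26), and 21.1% was regained. Cidec, which fuses lipid droplets, regained 54.6% and stayed at -1.08, and Gpd1, which makes glycerol 3-phosphate, regained 42.2% and stayed at -1.37. Acly, the enzyme that gives cytosolic acetyl-CoA, was at 361, 351 and 356 CPM in sh-Empty and 146, 132 and 137 CPM in JMJD1A(WT) cells, with no called change from 130.4 CPM in LacZ cells (log2 0.09 ± 0.044, edgeR adjusted p = 0.274). Pnpla2, the triglyceride lipase ATGL, rose by 0.19 over LacZ (edgeR adjusted p = 0.0387) and stood at -1.31 from the control. Tmem120a, a membrane protein linked to adipocyte differentiation, had fallen by 1.34 on the log2 scale on knockdown and was still at -0.97.

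By list, 15 of 22 genes of fatty acid and triglyceride synthesis were lower in JMJD1A(WT) than in sh-Empty and 2 were higher, with a median of -0.31. Against LacZ, 9 of these were higher and 1 was lower, where 5.06% and 4.32% of all genes were. For lipid droplet coat proteins and lipolysis, 8 of 12 were lower and 1 higher (median -0.33). For fatty acid uptake, binding and activation, 9 of 16 were lower and 5 higher (median -0.17). Cholesterol synthesis had 13 of 23 lower and 3 higher (median -0.22), and mitochondrial oxidation and the citric acid cycle 18 of 27 lower and 3 higher (median -0.26). Of 12 genes of insulin signalling and glucose uptake, 5 were lower and 3 higher (median -0.041). The counts against sh-Empty stand beside 22.8% of all genes higher and 22.8% lower. In each of these 6 lists the median on knockdown was more negative than the median of JMJD1A(WT) against sh-Empty, from -0.67 for fatty acid and triglyceride synthesis to -0.34 for insulin signalling. Part of this difference was already present in LacZ cells for fatty acid uptake. There 8 of 16 genes were higher and 1 lower in LacZ than in sh-Jmjd1a cells, where 3.62% and 3.36% of all genes were. Their median was 0.19, against a median of 0.11 from LacZ to JMJD1A(WT). The same 2 medians were 0.079 and 0.086 for fatty acid and triglyceride synthesis and 0.085 and 0.16 for lipid droplets. They were 0.070 and 0.067 for mitochondrial oxidation and 0.033 and 0.067 for insulin signalling. For cholesterol synthesis they were -0.0053 and 0.17.

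**Figure D4:**
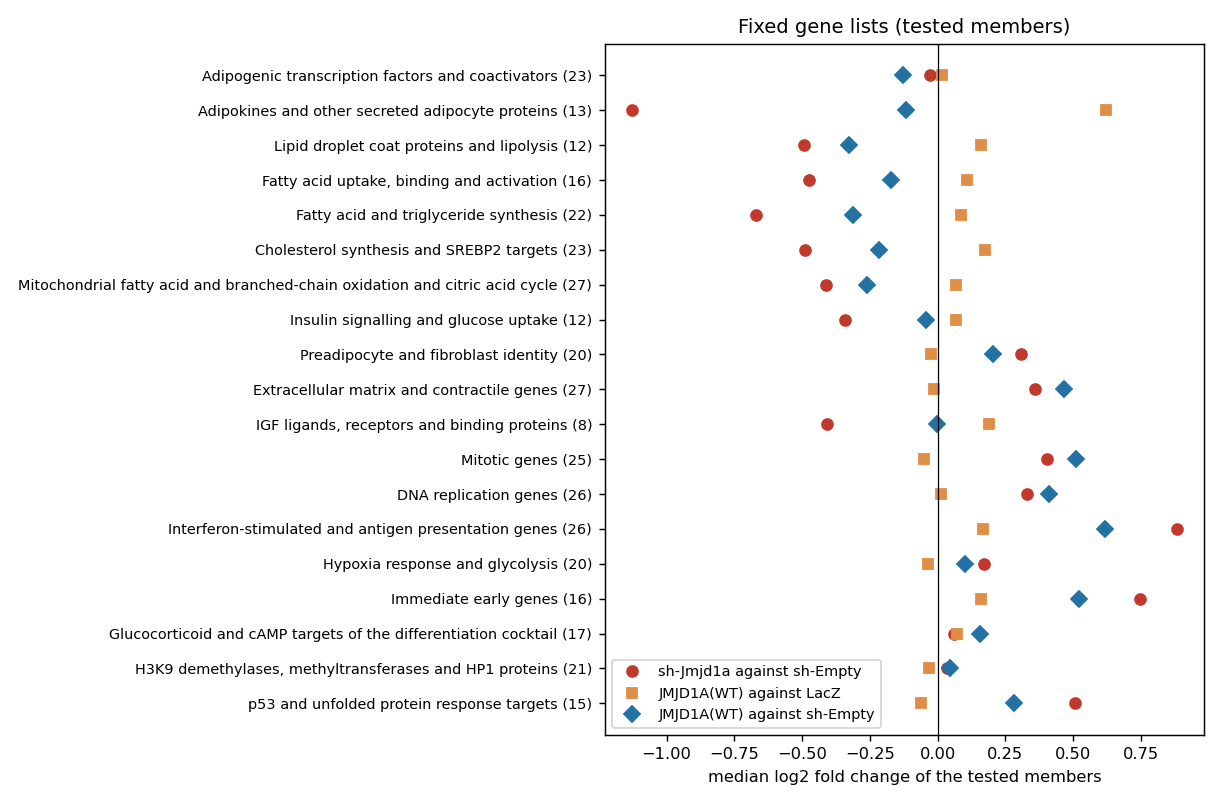
Median log2 change of each fixed gene list, with the number of tested members in brackets. Circles are sh-Jmjd1a against sh-Empty, squares JMJD1A(WT) against LacZ, and diamonds JMJD1A(WT) against sh-Empty. Lipid and adipokine lists lie left of 0 on knockdown and nearer 0 after re-expression, while mitotic and DNA replication lists stay right of 0 with squares near 0.

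A small group of genes was back at the control level, although for some the rise from LacZ covered only part of the loss. Mylk, which encodes myosin light chain kinase, was at 147, 153 and 160.3 CPM in sh-Empty, 64, 62.3 and 78.1 CPM in sh-Jmjd1a, 102, 82.1 and 88.2 CPM in LacZ and 153, 152 and 153 CPM in JMJD1A(WT) cells. The rescued libraries lay within the range of the control libraries, and the interval of the log2 difference was -0.18 to 0.16. From LacZ, Mylk had regained 63.9% of its loss, and LacZ cells already stood above sh-Jmjd1a cells. Trf, which encodes the iron carrier transferrin, was at 9.39, 8.34 and 6.78 CPM in sh-Empty, 2.43, 2.57 and 1.70 CPM in sh-Jmjd1a, 4.35, 4.48 and 3.27 CPM in LacZ and 8.34, 7.79 and 7.44 CPM in JMJD1A(WT) cells, so the LacZ cells were already part of the way back. Its share regained from LacZ was 51.0%.

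Magel2, an imprinted gene, was at 11.2, 8.43 and 10.5 CPM in sh-Empty, 2.88, 5.61 and 2.99 CPM in LacZ and 9.45, 7.79 and 9.35 CPM in JMJD1A(WT) cells, with overlap of the first and last groups and an interval of -0.47 to 0.14. Ltc4s, the leukotriene C4 synthase, was restored to 7.90, 6.85 and 9.70 CPM against 10.1, 9.70 and 9.47 CPM. A530016L24Rik, a gene of unknown function, returned from 2.80 CPM on average to 10, 13.2 and 8.49 CPM, against 13, 9.96 and 12.3 CPM in the control, but without JMJD1A(WT) replicate 2 it was called lower (-0.38, edgeR adjusted p = 0.031). Its share regained from LacZ was 53.1%, against 87.1% for Magel2 and 123.7% for Ltc4s. The other genes at the control level after a loss of at least 2-fold were chosen after their values were seen, and among them Abcg1, a sterol exporter, Ptpn6, a tyrosine phosphatase, and Mc2r, the corticotropin receptor, stood at 0.16, 0.06 and 0.05 on the log2 scale from the control.

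Some genes went past the control. Adamts15, a secreted matrix protease, was at 21.9, 18.1 and 19.6 CPM in sh-Empty, 9.54, 8.36 and 8.35 CPM in sh-Jmjd1a, 14, 12.1 and 12.5 CPM in LacZ and 46.5, 41.2 and 36.6 CPM in JMJD1A(WT) cells. All rescued libraries were above all control libraries, by 1.04 ± 0.10 on the log2 scale (edgeR adjusted p = 3.67e-13). AU015836 rose from 3.06 CPM in LacZ to 21 CPM, against 15.8 CPM in the control, 0.37 ± 0.11 above it (edgeR adjusted p = 0.00398). Igf2, a fetal growth factor, was at 1.65, 2.64 and 1.22 CPM in sh-Empty, 0.779 CPM on average in LacZ and 4.65, 5.98 and 4.71 CPM in JMJD1A(WT) cells, and was not called on knockdown (-0.74). In total 6 of the 283 genes lower on knockdown were called above the control and 208 below it, where 22.8% of all genes were called each way. The 283 had been chosen as low against the same sh-Empty libraries.

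Genes higher on knockdown behaved otherwise. Gap43, a growth-associated protein of neurons, was at 0.609, 0.426 and 0.384 CPM in sh-Empty, 11.5, 12.8 and 8.59 CPM in sh-Jmjd1a, 9.57, 12.1 and 10.9 CPM in LacZ and 9.01, 11.2 and 14.3 CPM in JMJD1A(WT) cells. The 3 hairpin-carrying groups overlapped each other and stood apart from the control, by 4.67 ± 0.51 for JMJD1A(WT) (edgeR adjusted p = 4.51e-18). Fibin, a secreted protein first described in fin bud development, showed the same picture, at 2.17, 1.62 and 1.41 CPM in sh-Empty and 18.5, 16.7 and 21 CPM in JMJD1A(WT) cells. The H1122A cells were at 10.5, 9.54 and 9.86 CPM for Gap43 and 19.3, 15.5 and 17.7 CPM for Fibin. For such genes, a lasting result of the knockdown and a difference between the lines cannot be told apart.

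Ostn, which encodes the secreted peptide osteocrin, was at 2.26, 1.87 and 1.54 CPM in sh-Empty, 46.1, 48.8 and 41.5 CPM in sh-Jmjd1a, 33.4, 43.2 and 38.4 CPM in LacZ and 27.8, 28.2 and 31.8 CPM in JMJD1A(WT) cells. It fell by 0.37 from LacZ to JMJD1A(WT) (edgeR adjusted p = 0.00196) and remained above the control (mean 29.3 against 1.89 CPM, edgeR adjusted p = 3.87e-25). Igfbp5, which binds insulin-like growth factors, at chr1:72904506-72921458, moved further away. Its level was 7.91, 7.83 and 7.49 CPM in sh-Empty, 59.8, 61.1 and 54.7 CPM in sh-Jmjd1a, 59.8, 67.8 and 53.8 CPM in LacZ and 124, 116 and 116 CPM in JMJD1A(WT) cells, a rise of 0.97 ± 0.061 over LacZ (edgeR adjusted p = 1.14e-17). Of the 8 tested genes for insulin-like growth factors, their receptors and binding proteins, 4 were higher and 4 lower than in sh-Empty, and none was at the control level, against 22.8%, 22.8% and 38.6% of all genes. Igfbp4 lay at -0.50 after a knockdown change of -1.41, and Igfbp6 stayed at -1.34.

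A few genes raised on knockdown did come back. Agtr2, the angiotensin II type 2 receptor, was at 35.6, 32.6 and 35.1 CPM in sh-Empty, 76.9, 80.3 and 88.3 CPM in sh-Jmjd1a, 47.4, 50.1 and 48.6 CPM in LacZ and 32.8, 35.6 and 34.5 CPM in JMJD1A(WT) cells. The rescued libraries overlapped the control libraries, and LacZ cells were already below sh-Jmjd1a cells. Dlx2, a homeobox factor, was at 8.05, 7.55 and 9.35 CPM in JMJD1A(WT) and 6.09, 8.43 and 7.49 CPM in sh-Empty cells, but its decrease from LacZ was not called (-0.37 ± 0.14, edgeR adjusted p = 0.0965). Casp4 and Casp12, inflammatory caspases, were within 0.25 and 0.36 of the control after knockdown changes of 1.40 and 1.27. Mdga1, a cell surface adhesion protein, was the 1 gene of the 434 called below the control, at -0.43 ± 0.16 (edgeR adjusted p = 0.0296), and lost that call when sh-Empty replicate 1, sh-Empty replicate 2, JMJD1A(WT) replicate 1 or JMJD1A(WT) replicate 3 was left out, at -0.45 to -0.34 (edgeR adjusted p = 0.0605 to 0.15).

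The longest run of neighbouring genes that were all at least 2-fold higher in JMJD1A(WT) than in sh-Empty was on the X chromosome, at chrX:104032421-104598715 in mm9, and was chosen after its values were seen. It held 5 consecutive tested genes, Rtl3, Lpar4, P2ry10, P2ry10b and Itm2a, over 566295 bases. Rtl3, derived from a retrotransposon, was at 1.04, 0.596 and 0.640 CPM in sh-Empty, 9.71, 11.6 and 7.81 CPM in sh-Jmjd1a, 26.4, 23.5 and 24.3 CPM in LacZ, 41.8, 43 and 41.9 CPM in JMJD1A(WT) and 25.3, 24.1 and 25.1 CPM in H1122A cells. All groups with a hairpin were above the control, and JMJD1A(WT) was the highest of them. Lpar4, a lysophosphatidic acid receptor, was at 5.56, 5.70 and 4.86 CPM in sh-Empty, 41.7, 45 and 44.1 CPM in sh-Jmjd1a, 78.1, 82.5 and 79.2 CPM in LacZ and 95.4, 102 and 93.4 CPM in JMJD1A(WT) cells. P2ry10 and P2ry10b, related lysophospholipid receptors whose reads may be shared, were also higher, P2ry10 at no more than 1 CPM in any of these 4 groups, and Itm2a, a membrane protein, was at 1.04, 0.0851 and 0.192 CPM in sh-Empty and 4.36, 3.46 and 3.23 CPM in JMJD1A(WT) cells, having risen over LacZ by 1.51. Klhl4, a Kelch protein also on the X chromosome, was at 0.348, 0.426 and 0.128 CPM in sh-Empty and 10.8, 13.5 and 10.9 CPM in JMJD1A(WT) cells, and at 9.97, 9.38 and 10.9 CPM in LacZ cells.

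Several genes far below the control were low in all hairpin lines. Npm3, a histone-binding nucleolar protein, was at 59.7, 65.6 and 64.9 CPM in sh-Empty, 15.3, 19.4 and 16.1 CPM in sh-Jmjd1a, 17.4, 14.9 and 16.7 CPM in LacZ and 17.8, 16.7 and 16.9 CPM in JMJD1A(WT) cells, with no change from LacZ that was called (0.06 ± 0.10, edgeR adjusted p = 0.792). Cd24a, a surface glycoprotein of adipocyte progenitors, moved further away, at 38.9, 32.7 and 37.9 CPM in sh-Empty, 23.2, 21.9 and 20.1 CPM in sh-Jmjd1a, 11.4, 12.4 and 10.7 CPM in LacZ and 6.42, 6.61 and 6.31 CPM in JMJD1A(WT) cells. Tgfb2, a transforming growth factor, was likewise lower than in LacZ (-0.54 ± 0.15, edgeR adjusted p = 0.0138) and at -1.87 from the control. Prl2c2, a placental-type prolactin family member with close copies that may share its reads, and Saa3, an acute phase protein, stayed -2.15 and -1.86 from the control.

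Cell cycle genes stayed above the control. Of 25 mitotic genes, 23 were higher in JMJD1A(WT) than in sh-Empty and none lower, with a median of 0.51, against 22.8% of all genes each way. None of the 25 was called between JMJD1A(WT) and LacZ, where 5.06% of all genes were higher and 4.32% lower. Mki67, a marker of dividing cells, was at 136, 156 and 138 CPM in sh-Empty, 224 CPM on average in sh-Jmjd1a, 229 CPM in LacZ and 234, 214 and 233 CPM in JMJD1A(WT) cells, and Kif23, a kinesin of cytokinesis, was 0.95 above the control. Of 26 DNA replication genes, 19 were higher and none lower than in sh-Empty (median 0.41, against the same share of all genes), and 2 were lower than in LacZ. Mcm4, a subunit of the replicative helicase, was at 140.3, 138 and 144 CPM in sh-Empty and 248, 261 and 246 CPM in JMJD1A(WT) cells. Pcna, the polymerase clamp, fell by 0.16 from LacZ to JMJD1A(WT) (edgeR adjusted p = 0.0109) and remained 0.60 above the control.

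Of 27 extracellular matrix and contractile genes, 17 were higher than in sh-Empty and 3 lower (median 0.47), against 22.8% of all genes each way. On knockdown 16 were higher and 8 lower, and in LacZ against sh-Jmjd1a cells 14 were higher and 2 lower, where 3.62% of all genes were higher and 3.36% lower. Col1a1, a chain of fibrillar collagen I, was at 1192, 1141 and 1127 CPM in sh-Empty, 3107 CPM on average in sh-Jmjd1a, 3688 CPM in LacZ and 3755, 3564 and 3712 CPM in JMJD1A(WT) cells, a difference of 1.67 ± 0.034 from the control (edgeR adjusted p = 1.47e-37). Tnc, which encodes tenascin C, fell by 0.44 from LacZ (edgeR adjusted p = 9.85e-05) and was still 1.55 above the control, and Thbs1, which encodes thrombospondin 1, was 1.59 above it. Of 20 preadipocyte and fibroblast identity genes, 11 were higher and 4 lower than in sh-Empty (median 0.20), and the share of lower genes was near the 22.8% of all genes. Zfpm2, a GATA cofactor of that list, remained 0.57 above the control.

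Of 26 interferon-stimulated and antigen presentation genes, 13 were higher than in sh-Empty and 1 lower, with a median of 0.62, against 22.8% of all genes each way. The median was 0.88 on knockdown, and 8 were lower and none higher in LacZ than in sh-Jmjd1a, where 3.36% of all genes were lower and 3.62% higher. B2m, the light chain of MHC class I, was at 531, 526 and 528 CPM in sh-Empty, 919 CPM on average in sh-Jmjd1a, 775 CPM in LacZ and 768, 798 and 808 CPM in JMJD1A(WT) cells, and Psmb9, an immunoproteasome subunit, was 2.07 above the control. Immediate early genes had 12 of 16 higher and 2 lower than in sh-Empty (median 0.52, against the same 22.8%). Egr1 was at 53, 45.7 and 49 CPM in sh-Empty, 117 CPM on average in sh-Jmjd1a, 73.9 CPM in LacZ and 117, 118 and 119 CPM in JMJD1A(WT) cells, and so was higher with JMJD1A(WT) than with LacZ (0.68 ± 0.07, edgeR adjusted p = 4.17e-08). Nr4a1, an orphan nuclear receptor induced by cAMP, was 0.21 above the control after 0.49 on knockdown.

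Of 15 p53 and unfolded protein response targets, 8 were higher and 2 lower than in sh-Empty (median 0.28), where 22.8% of all genes differed each way, with the amino acid response genes Trib3 and Asns at 29 and 174 CPM against 10.7 and 103 CPM in the control and the chaperone Hspa5 at the control level (-0.05). Glucocorticoid and cAMP targets had 9 of 17 higher and 2 lower (median 0.16, against the same 22.8%), and Fkbp5, a glucocorticoid target, was at the control level with 1194, 1256 and 1269.5 CPM in sh-Empty and 1209, 1249 and 1197 CPM in JMJD1A(WT) cells. Of 20 hypoxia response and glycolysis genes, 7 were higher and 5 lower (median 0.10, against the same 22.8%), the share of lower genes being near that of all genes. In this list 1 gene was apart, against 19.5% of all genes. Of 21 tested H3K9 demethylases, methyltransferases and HP1 proteins, Kdm3a among them, 5 were higher and 6 lower (median 0.046), and 10 were at the control level, against 22.8%, 22.8% and 38.6% of all genes. Setdb1, an H3K9 methyltransferase, was at 247, 235 and 242 CPM in sh-Empty, 182 CPM on average in sh-Jmjd1a, 193 CPM in LacZ and 126, 129.5 and 129 CPM in JMJD1A(WT) cells, so it was lower than in LacZ (-0.59 ± 0.044, edgeR adjusted p = 5.03e-15).

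The summed level of 8 skeletal muscle markers was 3.61 to 5.21 CPM in sh-Empty and 18 to 20.9 CPM in JMJD1A(WT) libraries. This rested on Des, an intermediate filament protein, at 3.39, 2.30 and 3.90 CPM in sh-Empty and 15.7, 16.6 and 14.2 CPM in JMJD1A(WT) cells, and on Tnnt3, a troponin, at 1.39, 1.19 and 1.22 and 3.69, 4.25 and 3.55 CPM. Neither was called on knockdown, at -0.27 and -0.05. The defining markers Myod1, Myog, Myf5, Pax7 and Ckm were at 0 counts in all libraries of both groups. Bone and cartilage markers summed to 32.3 to 34.8 CPM in sh-Empty and 36.8 to 40.6 CPM in JMJD1A(WT) libraries, with Runx2, a bone transcription factor, 0.81 above the control and Alpl, an alkaline phosphatase, -1.07 from it. The part of these markers in the other results was not tested.

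So that each change was measured within its own set of lines, the change from LacZ to JMJD1A(WT) was set against the change from sh-Jmjd1a to sh-Empty in 1 contrast, in which no library enters more than once. It is 0 where re-expression moved a gene as far as the hairpin had, in the other direction. The lines within each set were also made by separate infections. A difference between them that did not come from JMJD1A therefore stays in this contrast. It differed from 0 for 4167 genes (32.7%), with 2167 above (17%) and 2000 below (15.7%). By at least 2-fold it did so for 603 genes (4.73%), with 467 above (3.66%) and 136 below (1.07%). For Cebpa it was -0.53 ± 0.08 (edgeR adjusted p = 8.21e-07), for Pparg -0.52 ± 0.079 (edgeR adjusted p = 5.92e-07) and for Plin1 -1.86 ± 0.089 (edgeR adjusted p = 2.1e-22), so the rise fell short of the loss for each. Cebpa and Fabp4 had been higher in LacZ than in sh-Jmjd1a, by 0.37 and 0.35, although LacZ cells carried no JMJD1A construct. For AU015836 the contrast was 0.01 ± 0.29 (edgeR adjusted p = 0.993), for Magel2 -0.18 ± 0.29 (edgeR adjusted p = 0.676) and for Ltc4s 0.33 ± 0.29 (edgeR adjusted p = 0.426), where a shortfall was not detected at this precision. Adamts15 was 0.48 ± 0.17 above an equal return (edgeR adjusted p = 0.0306).

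Exons annotated on the opposite strand overlap those of Srebf1, Gpd1, Ltc4s, Npm3, Col1a1, Tnc, Setdb1, Egr1, Igf2, Psmb9, Des and Runx2. The strand setting of the counting is not given in the sources used here, so reads of these genes and their partners may be shared.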

How the data were processed

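RNA was measured on day 2 of differentiation in 15 3T3-L1 libraries of 5 groups with 3 replicates each, of which 3 JMJD1A(WT) and 3 sh-Empty libraries are compared here. Poly(A) RNA was sequenced. The counts that the authors deposited are raw and per gene, made with fastp, HISAT2 on mm9 and featureCounts. The strand setting is not given in the sources used here, and the labels and the methods name different NEBNext kits. Of 26301 gene numbers, 24191 had a symbol and 22668 were placed on NCBIM37.

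All 15 libraries were fitted together in edgeR 4.0.16 (R 4.3.3; limma 3.58.1; statmod 1.5.0 for robust fits), by the quasi-likelihood method with bias-adjusted deviances and robust dispersions. TMM factors and filterByExpr (minimum count 10) were used, with Benjamini-Hochberg adjustment over 12758 genes at 0.05 and no block. DESeq2 1.42.0 was an alternative. CPM used TMM-scaled library sizes. Fold changes are log2 with SE; 95% intervals came from the same fit, and tests were two-sided. The steps were tested on simulated data. Totals ranged from 11437058 to 25523148 counts, and precision is lowest for genes at a few CPM. Replicate pairs differed more than sampling noise (chi-square per degree of freedom 2.06 to 5.32).

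Named genes were Kdm3a, genes the study names for adipocyte differentiation and Gusb, the 8 with the largest difference in each direction, the 5 with the largest knockdown change per outcome and direction, the 5 with the largest difference of differences in each direction, up to 6 per fixed list (4 by change and 2 by level), and the 4 farthest past the control, above 5 CPM where ranked by size. Knockdown-responsive means an adjusted p under 0.05 and at least 2-fold. A gene named outside this rule was chosen after its values were seen, as were Dgat1, Dgat2, Casp4 and Casp12. The comparison, lists and rule were chosen with earlier results of these data known. Alternatives covered size factors, tool, filter, libraries, depth, replicates, block, bound and threshold. CUT&Tag data were not analysed here, and a few genes that the rule names are not reported here.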

Additional observations from a re-analysis of the deposited data

Results flagged for a closer look

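The change on re-expression differed from the reverse of the knockdown change, by the test of the difference itself, for 4167 genes. Differences between the lines within a set also enter this test. The 5 largest differences above 0 among genes over 5 CPM were in Gap43 (4.69), Rtl3 (4.45), Ostn (4.24), Klhl4 (3.92) and Igfbp5 (3.89), on the log2 scale, each higher in 3 of 3 JMJD1A(WT) libraries than in all sh-Empty libraries. The 5 largest below 0 were in Cfd (-2.85), Ldhb-ps (-2.33), Garnl3 (-2.10), Adipoq (-2.08) and Gchfr (-1.93), each lower in 3 of 3 libraries. JMJD1A(WT) and sh-Empty both enter the contrast that ranked these genes, so this lack of overlap is no separate support. The 2 groups did not overlap for 52.9% of all genes. Garnl3, a Rap GTPase-activating protein, was at 16.6, 18 and 14.1 CPM in sh-Empty, 5.29, 4.98 and 5.41 CPM in sh-Jmjd1a, 4.62, 3.98 and 6.33 CPM in LacZ and 2.80, 4.09 and 3.70 CPM in JMJD1A(WT) cells. Gchfr, the regulator of GTP cyclohydrolase, was at 34.1, 24.8 and 32.4 CPM in sh-Empty and 11.8, 10.4 and 9.90 CPM in JMJD1A(WT) cells, and Ldhb-ps is a pseudogene whose reads may be shared with Ldhb. In the H1122A libraries, which enter no test between groups here, Kdm3a had a mean of 2213 CPM, above its level in the control.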

How the results depend on the processing

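Of the recomputed main counts and medians, 290 stayed close and 30 moved. With at least 2-fold required, 621 genes (436 higher, 185 lower) differed between JMJD1A(WT) and sh-Empty and 603 (467 higher, 136 lower) in the difference of differences. Tested against a 1.5-fold change (glmTreat), these were 610 (412, 198) and 493 (361, 132). With a bound of 25% in place of 50%, 4901 genes were apart, and 3 genes lower and 1 higher on knockdown were at the control level. With a bound of 2-fold these were 1066, 37 and 9. With a knockdown cutoff of 1.5-fold, 42 of the genes lower on knockdown were at the control level, 457 were apart and the median regained was 22.7%, and for those higher the values were 30, 828 and 4.26%. DESeq2 put 8 genes lower on knockdown at the control level. The cause of these moves, beyond the cutoffs, was not tested.

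Without one library at a time, JMJD1A(WT) against sh-Empty gave 5042 to 5640 genes (2537 to 2822 higher, 2505 to 2818 lower) and the difference of differences 3606 to 4131 (1876 to 2129, 1730 to 2012). The control-level class held 4948 to 5201 genes and the apart class 2414 to 2562. Of genes lower on knockdown, 8 to 19 were at the control level and 189 to 216 apart, with a median regained of 30.7% to 36.7%. Of genes higher, 1 to 5 were at the control level and 336 to 383 apart, with a median of -2.03% to 0.47%.

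Deviations of same-numbered JMJD1A(WT) and sh-Empty libraries correlated at 0.0181, -0.0339 and -0.0282, so no effect shared by replicate number was detected. This does not show how the libraries were handled. With the replicate number as a block, 5843 genes were called against sh-Empty and 4158 in the difference of differences. Of 173 named genes, 148 were called against sh-Empty, where 45.6% of all genes were. Among the named genes, 14 changed their call when some library was left out, and none reversed under 16 alternatives. Many of them were named for the size of this same difference, so these counts do not measure how stable genes in general are. Precision is limited below a few CPM, and the comparison rests on 1 set of lines per condition.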

Other observations

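Besides the X-linked run, 4 runs of 4 and 10 runs of 3 consecutive tested genes, among 12024 placed genes, were at least 2-fold apart in the same direction between JMJD1A(WT) and sh-Empty. All were chosen after their values were seen. One on chromosome 1, chr1:135142674-135276913 in mm9, held Plekha6, Kiss1, Ren1 and Etnk2, and all 4 were higher in JMJD1A(WT) than in both sh-Empty and LacZ. Ren1, which encodes renin, the protease that cleaves angiotensinogen, was at 184, 178 and 195 CPM in sh-Empty, 143, 153 and 131 CPM in sh-Jmjd1a, 108, 109.6 and 110.5 CPM in LacZ and 468, 493 and 438 CPM in JMJD1A(WT) cells. It was 2.09 ± 0.05 above LacZ (edgeR adjusted p = 4.6e-33) and 1.32 ± 0.047 above sh-Empty (edgeR adjusted p = 1.34e-26), while knockdown had lowered it (-0.39 ± 0.052, edgeR adjusted p = 2.66e-08). Kiss1, which encodes kisspeptin, was at 0.348, 0.766 and 0.448 CPM in sh-Empty, 0.803, 0.640 and 1.35 CPM in LacZ and 3.10, 5.27 and 4.13 CPM in JMJD1A(WT) cells.

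A run on chromosome 11, chr11:99963321-100009979, held the keratin genes Krt36, Krt13, Krt15 and Krt19, all lower than in sh-Empty. Krt13 was at 55.6, 52.2 and 59.7 CPM in sh-Empty, 25.8, 27.2 and 28.2 CPM in sh-Jmjd1a, 16.1, 13.9 and 13.5 CPM in LacZ and 27.9, 26 and 24.6 CPM in JMJD1A(WT) cells, and Krt15 at 33.7, 29.9 and 35.3 and 13.7, 11.3 and 11.3 CPM in the first and last of these groups. Krt36 lost its call without sh-Empty replicate 3 (-1.35, edgeR adjusted p = 0.0525). A run on chromosome 13, chr13:60943982-62274779, held 4930486L24Rik, Ctla2b, Ctla2a and Zfp808, all higher, and Ctla2a and Ctla2b are near-identical copies whose reads may be shared. Another on chromosome 1, chr1:84989265-87606573, held C130026I21Rik, Sp110, Sp140 and Sp100, copies of a nuclear body family that may also share reads, and exons on the opposite strand overlap those of C130026I21Rik and Sp140. Sp140 was at 2.78, 2.13 and 2.88 CPM in sh-Empty and 9.23, 11.3 and 11.5 CPM in JMJD1A(WT) cells. Sp110 was not called without sh-Empty replicate 2 (1.79, edgeR adjusted p = 0.0518) or JMJD1A(WT) replicate 3 (1.61, edgeR adjusted p = 0.128), and C130026I21Rik was not called without sh-Empty replicate 3 (1.29, edgeR adjusted p = 0.135) or JMJD1A(WT) replicate 2 (1.43, edgeR adjusted p = 0.0757). The median log2 difference from sh-Empty ranged from -0.12 on chromosome 14 to 0.19 on the X chromosome.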
